A study of Mus musculus with 36 samples.

Results

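The genes described here are 50 cell cycle and DNA replication genes, matched by symbol among the 36528 genes of the deposited table and followed through bone marrow-derived macrophages (BMDMs) treated with LPS, a bacterial cell wall component that activates macrophages through Toll-like receptor 4. They were divided by role into 16 G1/S members (cyclins D and E, their kinases, E2F factors and the inhibitors), 12 replication members (origin licensing, the MCM helicase and nucleotide supply) and 22 mitotic members. BMDMs came from 3 mice labelled Loxp, which carry a floxed Cop1 gene and Rosa26-CreERT2 (Cop1-floxed below), and from 3 mice labelled WT, with wild-type Cop1 and Rosa26-CreERT2. CreERT2 is a Cre recombinase that needs an estrogen receptor ligand to enter the nucleus, and at Rosa26 it is expressed in most cell types, so both genotypes carry it. Cells at day 7 of differentiation received 100 ng/ml LPS and were lysed at the times labelled T2.5, T4, T6, T9 and T13, or were left untreated (T0). The 12 groups of n = 3 gave 36 libraries of polyadenylated RNA, and the same mouse of a genotype gave its library at every time. The time unit, the use of an inducing ligand and the deleted part of Cop1 are not given in the sources used here, and with no untreated cells at later times the effects of LPS and of time in culture cannot be told apart.

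A dividing cell commits to a new round of DNA synthesis when cyclin D and cyclin E kinases inactivate the retinoblastoma protein and release E2F factors, which switch on the genes of replication. CDC6 and CDT1 load the MCM helicase at origins in G1, and a later program driven by B-MYB and FOXM1 supplies the mitotic kinases, the spindle motors and the anaphase-promoting machinery. Macrophages grown from bone marrow divide in response to CSF1, and LPS is known to arrest their growth. COP1 is a ubiquitin ligase best known for marking transcription factors such as JUN, ETS family members and C/EBP proteins for degradation.

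Library totals ran from 24069541 to 40298009 uniquely aligned reads, with a median of 34549113. All 50 members were among the 15685 genes tested, although Bub1, Ccnb1 and Cdc25c had libraries with 0 counts, so small values are imprecise. Cop1 itself stood at 1.21, 1.08 and 1.09 RPKM in the untreated Cop1-floxed libraries, against 1.83, 1.86 and 1.85 RPKM in the untreated wild-type libraries, a log2 difference of -0.70 ± 0.12 (SE; adjusted p = 0.00014, edgeR). All 8 macrophage markers were detected in every library, with sums of 10740 RPKM or more. Cop1-floxed sums were higher at T0, at 17390 to 18450 RPKM against 12920 to 14130 RPKM in wild-type cells. They were also higher at T6 (19210 to 21240 against 15080 to 16650 RPKM) and T9 (16780 to 18540 against 13300 to 14270 RPKM), and overlapped at T13. The part of this gap in the genotype differences was not tested. Some wild-type libraries stood apart: the summed level of 6 granulocyte progenitor markers was 2.35 to 38.7 RPKM in untreated wild-type libraries, highest in replicate 2, against 1.49 to 2.52 RPKM in untreated Cop1-floxed libraries. All wild-type replicate 2 libraries carry Xist together with Y-linked transcripts, and a single mouse and a mix of mice cannot be told apart here. The 13 stromal and endothelial markers summed to 31.2 to 50.1 RPKM in untreated Cop1-floxed cells and to 93.6 to 225 RPKM in untreated wild-type cells. At T9, Cop1-floxed replicate 2 had the fewest genes detected of all 36 libraries, 15045. The 7 lymphocyte markers summed to 0.749 RPKM or less and the 6 erythroid markers to 1.86 RPKM or less in every library.

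From T4 on, most cell cycle members were lower under LPS in both genotypes, and by T13 the mitotic members had the lowest median. In Cop1-floxed cells 7 of 50 members were higher and 14 lower at T2.5 than at T0, when 29.0% of all genes tested were higher and 28.0% lower (edgeR quasi-likelihood test, adjusted p below 0.05). The lower count at T2.5 in Cop1-floxed cells was thus at the share of all genes. At T6 in Cop1-floxed cells 11 were higher and 33 lower (32.6% and 37.7% of all genes), with a median log2 fold change of -1.29 over the members and -0.12 over all genes. At T13 in Cop1-floxed cells 6 were higher and 36 lower (30.8% and 35.0% of all genes), with medians of -1.10 and -0.11. Wild-type cells gave 8 higher and 20 lower at T2.5 (28.8% and 30.0% of all genes), 12 and 33 at T6 (32.1% and 38.4%), and 7 and 38 at T13 (32.6% and 34.7%), with member medians of -0.98 at T6 and -1.07 at T13 against -0.15 and -0.08 over all genes. Counts at T4 and T9 lay on the same side, with 28 and 36 members lower in Cop1-floxed cells (35.1% and 38.4% of all genes) and 30 and 35 in wild-type cells (36.4% and 37.9%). The number lower at T2.5 depended on single mice and libraries: in Cop1-floxed cells it was 8 without replicate 2 and 7 without replicate 3, and in wild-type cells it was 13 without replicate 3 or without the T0 library of replicate 2. The granulocyte progenitor markers were also lower in wild-type cells at T6 (5 of 6 called, median -2.65) and T9 (3 of 6), and in Cop1-floxed cells 0 of 6 were called at any LPS time. At T6 they summed to 1.44 to 1.91 RPKM in Cop1-floxed libraries, against 1.49 to 2.52 RPKM at T0, and to 2.25 to 3.70 RPKM in wild-type libraries, against 2.35 to 38.7 RPKM at T0. Their part in the wild-type counts was not tested. In bulk RNA, fewer cycling cells and less RNA of these genes in each cell cannot be told apart.

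The scale matters for these counts. With TMM factors the median gene lay near 0, whereas with library totals in their place that median lay between -0.64 and -1.16 at the 5 LPS times in Cop1-floxed cells and between -0.72 and -1.10 in wild-type cells. Under library totals 4 members were higher and 40 lower at T6 in Cop1-floxed cells, with 6 and 40 in wild-type cells, and at T13 the split was 4 and 44 in Cop1-floxed cells and 4 and 45 in wild-type cells. At T2.5 it was 3 and 37 in Cop1-floxed cells and 3 and 40 in wild-type cells. At T4 it was 5 and 41 in Cop1-floxed cells and 5 and 42 in wild-type cells, and at T9 it was 4 and 41 in Cop1-floxed cells and 6 and 41 in wild-type cells. The shares of all genes printed here are of the TMM fit, so library-total counts here and below have no such baseline. On that scale the member medians at T6 were -2.33 in Cop1-floxed and -1.93 in wild-type cells, against -1.16 and -1.10 over all genes. At T2.5 they were -0.85 and -0.98, against -0.64 and -0.72. Every called value that changed direction between these scalings was a rise under TMM. For the genes named below, some of these are given beside them and others in the closing section on processing. Values in CPM are TMM-scaled throughout.

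**Figure D1:**
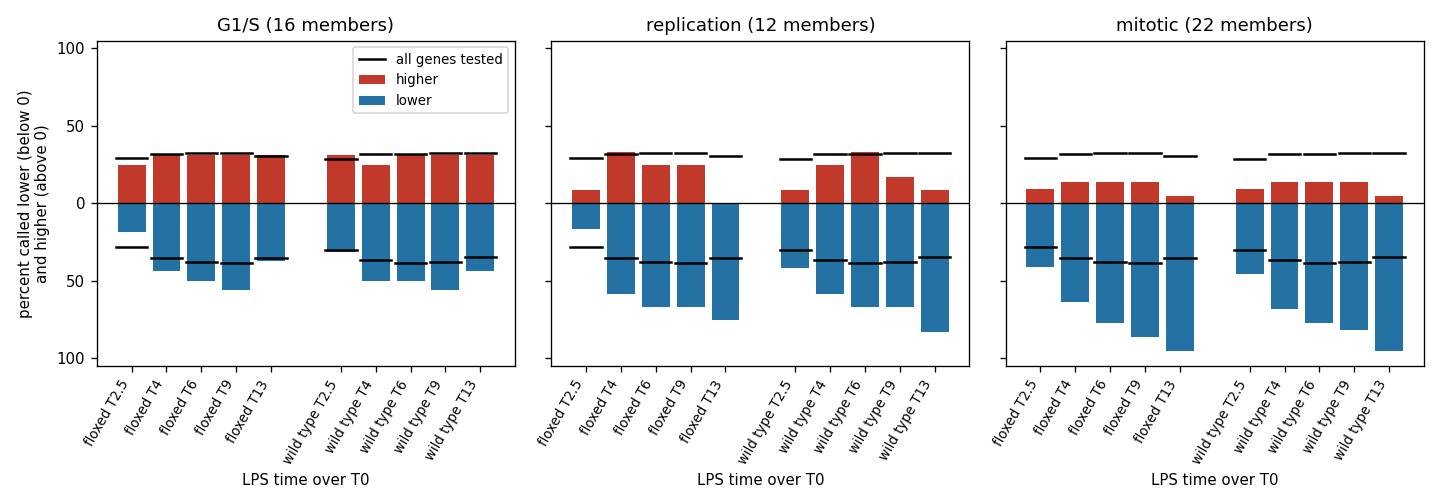
Percent of the G1/S, replication and mitotic members called lower (bars below 0) and higher (bars above 0) at each LPS time over T0, in Cop1-floxed and wild-type (WT) cells; black lines give the same percent over all genes tested. At T13, 21 of 22 mitotic members were lower in each genotype, against 35.0% of all genes in Cop1-floxed and 34.7% in wild-type cells.

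Among the G1/S members the D and E cyclins called at T6 were higher, and E2f1, E2f2, Cdk2, Cdk4 and the inhibitors were lower. Of those rises, Ccnd3 in Cop1-floxed and Ccne2 in wild-type cells turned to -0.29 and -0.38 under library totals. At T6, 5 of 16 were higher and 8 lower in each genotype (32.6% and 37.7% of all genes in Cop1-floxed and 32.1% and 38.4% in wild-type cells), and at T13 the counts were 5 and 6 in Cop1-floxed cells (30.8% and 35.0% of all genes) and 5 and 7 in wild-type cells (32.6% and 34.7%). The higher counts were near the share of all genes, and the lower ones at or somewhat above it. Under library totals they were 3 and 11 at T6 and at T13 in Cop1-floxed cells, and 4 and 11 at T6 and 3 and 12 at T13 in wild-type cells. Ccnd2, which encodes cyclin D2, had the largest rise of any member. It reached 371, 333 and 353 CPM at T6 in Cop1-floxed cells, against 3.00, 3.72 and 4.81 CPM at T0. Wild-type cells reached 412, 422 and 421 CPM at T6, against 4.99, 8.04 and 7.95 CPM at T0. No T6 library overlapped a T0 library, and the log2 fold change was 6.52 ± 0.19 in Cop1-floxed and 5.91 ± 0.18 in wild-type cells (SE; adjusted p = 1.27e-23 and 5.41e-23, edgeR). The peak was brief, since by T13 Ccnd2 had fallen to 64.5, 51.6 and 71.8 CPM in Cop1-floxed cells and to 86.7, 82.4 and 84.0 CPM in wild-type cells, still above every T0 library.

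The D cyclins followed each other in time. Ccnd1 (cyclin D1) had log2 fold changes of 0.39 at T4 in Cop1-floxed cells (-0.49 under library totals) and 0.07 in wild-type cells, and then reached 195, 159 and 168 CPM at T9 in Cop1-floxed cells, against 29.5, 32.8 and 31.5 CPM at T0. In wild-type cells it reached 124, 141 and 97.6 CPM at T9, against 25.4, 39.6 and 36.6 CPM at T0, and the log2 fold changes were 2.48 ± 0.17 and 1.83 ± 0.16 for Cop1-floxed and wild-type cells. Ccnd3 (cyclin D3) came last: it stood at 62.3, 69.9 and 54.8 CPM at T13 in Cop1-floxed cells, against 8.85, 10.5 and 11.8 CPM at T0. Wild-type cells stood at 50.9, 46.7 and 41.4 CPM at T13, against 8.20, 15.1 and 9.74 CPM at T0, so that the T13 and T0 libraries were far apart in both genotypes. Ccne1 (cyclin E1, partner of CDK2) rose and returned within the series, averaging 24.6 ± 0.84 CPM at T6 and 4.93 ± 0.41 CPM at T13 in Cop1-floxed cells, against 4.21 ± 0.59 CPM at T0 (SD, n = 3 each). In wild-type cells Ccne1 averaged 29.9 ± 4.5 CPM at T6 and 5.34 ± 0.25 CPM at T13, against 4.29 ± 0.73 CPM at T0.

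The E2F factors differed in direction and timing. E2f2, an activator, was at 0.250, 0.209 and 0.281 CPM at T6 in Cop1-floxed cells, against 12.6, 18.5 and 12.6 CPM at T0. In wild-type cells it was at 0.182, 0.242 and 0.529 CPM at T6, against 12.6, 13.2 and 13.8 CPM at T0. This was the deepest fall of any member at T6, with log2 fold changes of -5.86 ± 0.38 in Cop1-floxed and -5.33 ± 0.36 in wild-type cells, although the lowest library held 5 counts. E2f1, another activator, fell to 8.63 ± 1.1 CPM at T6 in Cop1-floxed cells, against 25.1 ± 2.4 CPM at T0, and to 7.95 ± 1.3 CPM in wild-type cells, against 23.0 ± 3.4 CPM at T0. By T13 it stood above T0, at 36.5, 39.2 and 35.2 CPM in Cop1-floxed cells and at 29.3, 30.0 and 30.4 CPM in wild-type cells (log2 fold changes over T0 of 0.56 and 0.38, which were -0.06 and -0.33 under library totals). E2f8, an atypical E2F that represses transcription, rose first, to 30.7 ± 0.96 CPM at T2.5 in Cop1-floxed cells, against 6.70 ± 0.31 CPM at T0, and to 29.1 ± 1.1 CPM in wild-type cells, against 4.98 ± 1.4 CPM at T0, and stayed above T0 at lower means after that (under library totals the Cop1-floxed values at T6, T9 and T13 were -0.16, -0.03 and -0.17).

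Among the inhibitors, Cdkn2c (p18INK4C, an inhibitor of CDK4 and CDK6) averaged 2.71 ± 0.12 CPM at T6 in Cop1-floxed cells, against 10.3 ± 1.1 CPM at T0, and 2.51 ± 0.30 CPM in wild-type cells, against 7.86 ± 1.6 CPM at T0. Cdkn1b (p27KIP1, an inhibitor of cyclin E kinase) had log2 fold changes of -1.03 and -0.65 at T6 in Cop1-floxed and wild-type cells, and Rb1, the retinoblastoma gene, had -0.96 and -0.83, all past the threshold. At T13 Rb1 did not pass, at 26.9 ± 2.0 CPM in Cop1-floxed and 29.8 ± 6.2 CPM in wild-type cells, against 31.2 ± 5.7 CPM and 27.0 ± 11.4 CPM at T0. The kinase genes Cdk2 and Cdk4 had log2 fold changes at T9 of -1.82 and -1.43 in Cop1-floxed and -1.63 and -1.34 in wild-type cells. Cdc25a, a phosphatase that activates CDK2, moved little, with log2 fold changes between -0.45 and 0.29 over the 10 comparisons with T0. The 0.29, at T2.5 in Cop1-floxed cells, was -0.34 under library totals. Myc, a growth-promoting transcription factor, passed the threshold at T2.5 only in Cop1-floxed cells (0.54, and -0.09 under library totals) and at T13 in wild-type cells (-0.95), and no interaction term of Myc passed at any time.

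**Figure D2:**
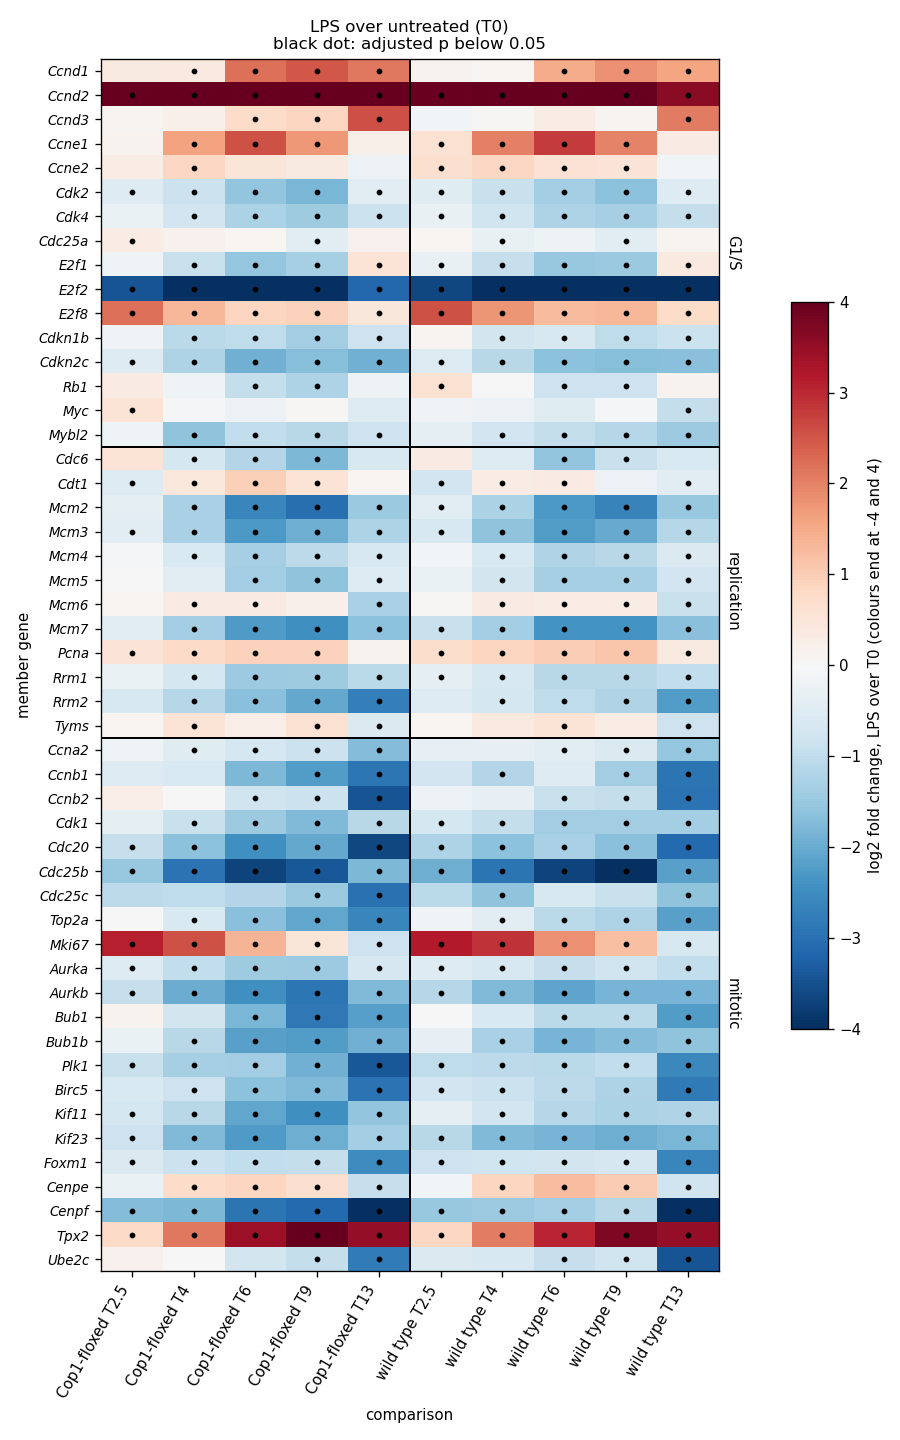
Log2 fold change of each of the 50 members (rows, by role) at each LPS time over T0 (columns, Cop1-floxed left and wild type right), with a black dot where the adjusted p was below 0.05. Ccnd2 and Tpx2 were higher at all 5 times in both genotypes, and E2f2 and Cdc25b were lower at all 5.

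Most replication members were lowest at T6 or T9 or fell through T13, and the MCM genes other than Mcm6 came partway back. At T6, 3 of 12 were higher and 8 lower in Cop1-floxed cells, and 4 and 8 in wild-type cells (32.6% and 37.7% of all genes in Cop1-floxed and 32.1% and 38.4% in wild-type cells), with medians of -1.36 and -1.15. Under library totals 0 were higher and 10 lower in each genotype, with medians of -2.40 in Cop1-floxed and -2.11 in wild-type cells. Mcm2, a subunit of the helicase that unwinds DNA, was at 1.65, 1.44 and 2.04 CPM at T9 in Cop1-floxed cells, against 12.1, 15.4 and 14.3 CPM at T0. In wild-type cells Mcm2 was at 1.77, 2.53 and 2.88 CPM at T9, against 14.0, 15.7 and 16.6 CPM at T0, and the log2 fold changes were -3.02 ± 0.22 and -2.69 ± 0.21 for Cop1-floxed and wild-type cells. Mcm3, another subunit, had its lowest mean at T6, 5.12 ± 0.69 CPM in Cop1-floxed and 5.86 ± 1.5 CPM in wild-type cells, against 25.5 ± 2.3 CPM and 27.8 ± 4.1 CPM at T0. Mcm7 had log2 fold changes at T6 of -2.26 and -2.39 in Cop1-floxed and wild-type cells, but its range also holds Ap4m1 and the Mir106b cluster, whose reads cannot be told apart without a strand setting. Cdc6, a loading factor, fell from a low level, with log2 fold changes of -1.16 ± 0.33 and -1.57 ± 0.34 at T6. The 300 bases around the start site of Mcm2 and Mcm3 are shown because both are helicase subunits that fell while their motif letters differ (GRCm38.p6, RefSeq, gene sense; capitals mark E2F, CHR and CCAAT letters on either strand).
Mcm2 (chr6:88898731-88899030, minus strand): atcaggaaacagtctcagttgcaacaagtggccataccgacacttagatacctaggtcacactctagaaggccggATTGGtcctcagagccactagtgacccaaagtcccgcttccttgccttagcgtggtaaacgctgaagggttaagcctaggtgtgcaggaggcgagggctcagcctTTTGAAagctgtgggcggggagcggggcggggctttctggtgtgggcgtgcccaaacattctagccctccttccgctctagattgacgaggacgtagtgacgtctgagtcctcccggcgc
Mcm3 (chr1:20820263-20820562, minus strand): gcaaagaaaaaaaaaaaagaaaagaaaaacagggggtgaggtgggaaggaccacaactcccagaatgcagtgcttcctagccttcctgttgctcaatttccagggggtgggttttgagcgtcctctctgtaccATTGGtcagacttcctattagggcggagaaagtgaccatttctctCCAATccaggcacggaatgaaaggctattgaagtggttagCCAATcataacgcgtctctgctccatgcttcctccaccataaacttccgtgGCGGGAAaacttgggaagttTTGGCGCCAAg

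A few replication genes were higher at T6 with TMM factors, and none was called higher there with library totals. Pcna, the sliding clamp of DNA polymerases, was at 39.5, 41.5 and 39.4 CPM at T6 in Cop1-floxed cells, against 20.3, 21.7 and 21.1 CPM at T0. In wild-type cells Pcna was at 36.3, 38.2 and 28.8 CPM at T6, against 16.9, 19.6 and 15.4 CPM at T0. The log2 fold changes were 0.93 ± 0.10 and 1.00 ± 0.10, and under library totals the Cop1-floxed value was -0.11. Mcm6, chosen after its values were seen, was not low at T6 like the other MCM genes. It averaged 107 ± 12 CPM at T6 in Cop1-floxed cells, against 84.6 ± 9.9 CPM at T0, and fell to 34.6 ± 1.6 CPM at T13, when the log2 fold change was -1.29 ± 0.11. In wild-type cells Mcm6 averaged 83.0 ± 7.4 CPM at T6 and 36.5 ± 1.4 CPM at T13, against 68.3 ± 5.7 CPM at T0. The small rises of Mcm6 at T6 (0.33 and 0.28) turned to -0.71 and -0.67 under library totals. Rrm2, the small subunit of ribonucleotide reductase, fell without recovery to 1.10 ± 0.29 CPM at T13 in Cop1-floxed cells, against 7.33 ± 1.3 CPM at T0, and to 2.01 ± 0.65 CPM in wild-type cells, against 9.52 ± 2.4 CPM at T0. Cdt1, the partner of CDC6 in loading, fell at T2.5 (-0.52 in Cop1-floxed and -0.76 in wild-type cells) and was higher at T6 (0.94 and 0.33), where library totals gave -0.09 and -0.63.

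The mitotic members were nearly all lower by T13. At that time 1 of 22 was higher and 21 lower in each genotype (30.8% and 35.0% of all genes in Cop1-floxed and 32.6% and 34.7% in wild-type cells). The mitotic medians were -2.07 in Cop1-floxed and -2.02 in wild-type cells. The lowest mean came at T13 for 13 of 22 in Cop1-floxed and 14 of 22 in wild-type cells, Mki67 and Cenpe, which first rose, included. Cenpf, a kinetochore protein, was at 0.204, 0.0276 and 0.0905 CPM at T13 in Cop1-floxed cells, against 2.25, 3.64 and 1.75 CPM at T0. In wild-type cells it was at 0.124, 0.298 and 0.0267 CPM at T13, against 2.37, 2.16 and 3.05 CPM at T0. The groups did not overlap (log2 fold changes of -4.54 ± 0.49 and -4.09 ± 0.46), but the lowest library held 1 count. Cdc20, the activator of the anaphase-promoting complex, was at 0.321, 0.221 and 0.211 CPM at T13 in Cop1-floxed cells, against 2.52, 3.26 and 3.64 CPM at T0. In wild-type cells Cdc20 was at 0.622, 0.566 and 0.374 CPM at T13, against 2.64, 6.32 and 4.80 CPM at T0, and the log2 fold changes were -3.63 ± 0.38 and -3.12 ± 0.34. Kif11 and Kif23, spindle motors, and Aurkb, the kinase of the chromosomal passenger complex, were already lower at T6, with log2 fold changes in Cop1-floxed cells of -2.09 for Kif11, -2.25 for Kif23 and -2.46 for Aurkb, and in wild-type cells of -1.14, -1.87 and -2.11. The other mitotic members lower at T13 ran in Cop1-floxed cells down to -3.45 for Ccnb2 (cyclin B2) and -3.39 for Plk1, a mitotic kinase, and in wild-type cells down to -3.46 for Ube2c, the ubiquitin-conjugating enzyme of the anaphase-promoting complex. Foxm1, which encodes a driver of this program, had -2.50 and -2.59 at T13.

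Cdc25b, a phosphatase that activates CDK1, had the largest fall of the mitotic members at T6. It was at 1.58, 1.92 and 0.913 CPM at T6 in Cop1-floxed cells, against 18.5, 20.4 and 19.0 CPM at T0. In wild-type cells it was at 0.945, 1.59 and 1.53 CPM at T6, against 16.9, 18.4 and 18.5 CPM at T0, and the log2 fold change was -3.71 ± 0.20 in Cop1-floxed and -3.72 ± 0.20 in wild-type cells. Cdc25b then turned upward, reaching 5.55 ± 0.93 CPM at T13 in Cop1-floxed and 3.97 ± 0.79 CPM in wild-type cells.

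A handful of mitotic genes went the other way for part or all of the series. Tpx2, a spindle assembly factor that activates Aurora A, was at 132, 101 and 146 CPM at T9 in Cop1-floxed cells, against 6.41, 9.41 and 6.69 CPM at T0. In wild-type cells Tpx2 was at 113, 101 and 111 CPM at T9, against 6.07, 10.2 and 8.14 CPM at T0, so every T9 library lay above every T0 library. The log2 fold changes were 4.08 ± 0.18 and 3.74 ± 0.18 (adjusted p = 6.30e-19 and 3.99e-18, edgeR), and Aurka, the kinase that TPX2 activates, was lower at all 5 times in both genotypes. Mki67 and Cenpe, chosen after their values were seen, were the only mitotic members called in both directions in either genotype. Mki67, which encodes the proliferation antigen Ki-67, jumped to 185, 135 and 171 CPM at T2.5 in Cop1-floxed cells, against 17.6, 23.2 and 16.3 CPM at T0. In wild-type cells Mki67 was at 193, 144 and 154 CPM at T2.5, against 20.3, 14.3 and 19.4 CPM at T0.

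The Mki67 rise was transient. Its log2 fold change over T0 was 3.10 ± 0.19 at T2.5, 2.55 at T4, 1.35 at T6, 0.50 at T9 and -0.82 ± 0.19 at T13 in Cop1-floxed cells, and 3.18 ± 0.19, 2.88, 1.83, 1.21 and -0.65 ± 0.19 in wild-type cells. The T9 value in Cop1-floxed cells was -0.46 under library totals. By T13 Mki67 was at 11.1, 10.3 and 11.0 CPM in Cop1-floxed cells and at 12.6, 9.53 and 12.2 CPM in wild-type cells, below every T0 library. Cenpe, a kinetochore motor, was higher at T4, T6 and T9, averaging 8.58 ± 1.0 CPM at T6 in Cop1-floxed cells, against 4.69 ± 0.69 CPM at T0, and 10.3 ± 1.1 CPM in wild-type cells, against 4.40 ± 0.97 CPM at T0. It then fell to 2.47 ± 0.21 CPM at T13 in Cop1-floxed and 2.52 ± 0.17 CPM in wild-type cells. Under library totals the rises of Cenpe in Cop1-floxed cells turned to between -0.33 and -0.14, and the rise at T4 in wild-type cells to -0.03. No other annotated gene overlaps the ranges of Mki67 or Cenpe, and Mir5622 alone lies within Tpx2.

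**Figure D3:**
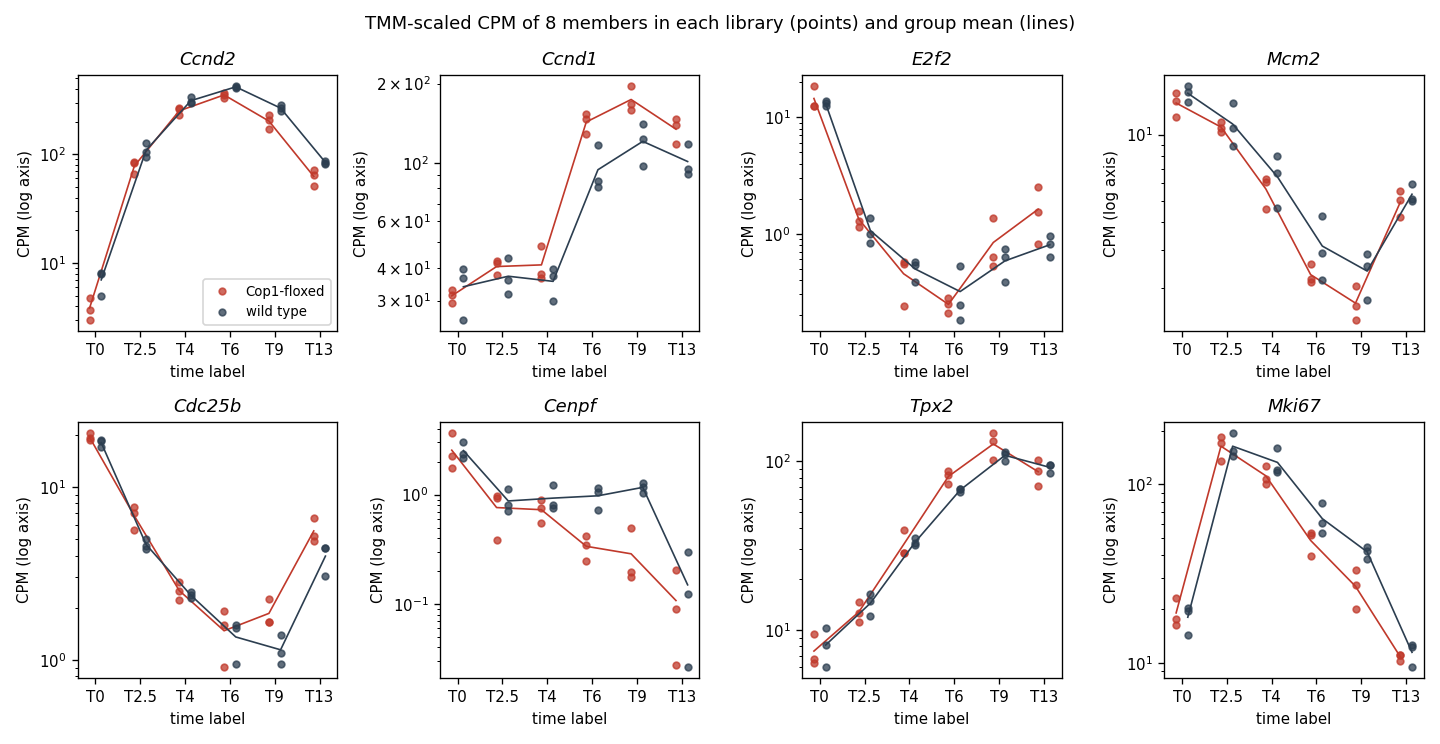
TMM-scaled CPM (log axis) of 8 members in each of 3 libraries per group (points) with the group mean (lines), Cop1-floxed and wild type, from T0 to T13. Ccnd2, Ccnd1 and Tpx2 sat above their T0 libraries late in the series, Mki67 peaked at T2.5 (135 to 193 CPM), and E2f2, Mcm2, Cdc25b and Cenpf sat below T0.

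The promoters of the mitotic members share letters that the rule for choosing them did not use. RefSeq promoters of GRCm38.p6, each of 250 bases before and 50 bases from the start site, matched 39 of the 50 members with 43 promoters; those without an entry were Cdc25c, Tpx2, Aurkb, Ccnd1, Rb1, Foxm1, Myc, Mcm4, Ccnd2, Ccna2 and Ccne2. The letters searched on both strands, overlaps allowed, were TTTGAA and TTTAAA for the CHR (the cell cycle genes homology region bound by the DREAM complex), CCAAT for the CCAAT box bound by NF-Y, and for E2F TTCCCGC with its variants (the word TTGGCGC, the word TTCGCGC and the word TTGCCGC). CHR letters were present in 88.2% of 17 mitotic promoters, 25% of 12 replication promoters, 28.6% of 14 G1/S promoters and 27.6% of all 32841 promoters. CCAAT was present in 94.1% of mitotic, 75% of replication and 57.1% of G1/S promoters, against 37.4% of all promoters. CHR and CCAAT together were present in 82.4% of mitotic promoters, against 10.7% of all. E2F letters were present in 75% of replication, 35.7% of G1/S and 17.6% of mitotic promoters, against 9.57% of all. These are matches of letters in a window and not shown to be bound, and members that rose and members that fell both hold them. Below are Cdc20 and Cenpf, which had deep falls by T13, Cdc25b, which fell early, and Mki67, which rose first, with the same capitals as above.
Cdc20 (chr4:118437294-118437593, minus strand): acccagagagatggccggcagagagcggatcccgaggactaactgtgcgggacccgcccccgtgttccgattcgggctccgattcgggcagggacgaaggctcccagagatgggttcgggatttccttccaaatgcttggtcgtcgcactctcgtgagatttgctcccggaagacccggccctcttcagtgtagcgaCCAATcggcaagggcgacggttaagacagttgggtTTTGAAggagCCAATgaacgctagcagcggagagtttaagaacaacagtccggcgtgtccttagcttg
Cenpf (chr1:189688037-189688336, minus strand): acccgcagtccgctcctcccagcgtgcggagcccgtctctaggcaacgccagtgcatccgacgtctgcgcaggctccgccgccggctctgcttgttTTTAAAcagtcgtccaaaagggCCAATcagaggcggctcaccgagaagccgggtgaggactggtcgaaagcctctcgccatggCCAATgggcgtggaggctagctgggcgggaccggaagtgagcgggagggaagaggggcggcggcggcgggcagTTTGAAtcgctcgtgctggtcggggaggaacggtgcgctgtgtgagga
Cdc25b (chr2:131186698-131186997, plus strand): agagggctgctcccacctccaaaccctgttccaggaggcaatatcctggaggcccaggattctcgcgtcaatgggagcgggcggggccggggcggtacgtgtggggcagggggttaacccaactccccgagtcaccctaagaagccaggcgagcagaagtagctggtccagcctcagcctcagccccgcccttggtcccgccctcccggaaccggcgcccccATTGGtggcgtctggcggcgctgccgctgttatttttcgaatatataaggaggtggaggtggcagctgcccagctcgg
Mki67 (chr7:135716330-135716629, minus strand): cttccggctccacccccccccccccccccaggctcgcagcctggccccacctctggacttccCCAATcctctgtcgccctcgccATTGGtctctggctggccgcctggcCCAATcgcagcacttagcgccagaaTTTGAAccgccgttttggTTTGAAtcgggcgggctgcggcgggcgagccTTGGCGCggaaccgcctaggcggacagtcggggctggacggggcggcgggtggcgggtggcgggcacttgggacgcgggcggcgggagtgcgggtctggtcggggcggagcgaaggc
Cdc20 and Cenpf hold CHR and CCAAT letters on the coding strand near the start site. Cdc25b holds a CCAAT box on the other strand and no CHR in the window shown. That window lies wholly within the annotated Cdc25b range (chr2:131186436-131198511), downstream of its first base. Mki67 holds CHR, CCAAT and E2F letters although it was the mitotic member that rose most at T2.5.

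**Figure D4:**
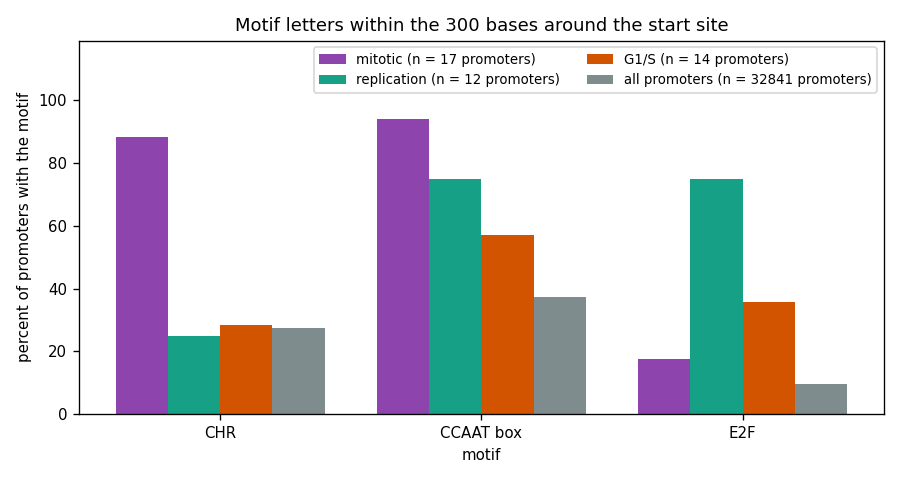
Percent of promoters that hold CHR, CCAAT box or E2F letters, for the mitotic, replication and G1/S members and for all RefSeq promoters. CHR letters were in 88.2% of mitotic and 27.6% of all promoters, and E2F letters in 75% of replication and 9.57% of all promoters.

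Between T6 and T13 members moved in both directions. In Cop1-floxed cells 16 members were higher at T13 than at T6 and 21 lower (29.2% and 30.5% of all genes), and in wild-type cells 15 and 22 (30.7% and 29.4%). The members lower exceeded the background share in both genotypes, and the members higher were near it. Without Cop1-floxed replicate 1 the number higher in Cop1-floxed cells was 10, and without wild-type replicate 1 the number higher in wild-type cells was 8. Under library totals the split in Cop1-floxed cells was 23 higher and 14 lower, and in wild-type cells it was 15 and 19. Among replication members, 6 were higher and 5 lower in each genotype, and Mcm2, Mcm3, Mcm4, Mcm5 and Mcm7 were higher in both. Mcm2 stood at 5.55, 4.22 and 5.04 CPM at T13 in Cop1-floxed cells, against 2.58, 2.20 and 2.14 CPM at T6, and averaged 5.35 ± 0.52 CPM at T13 in wild-type cells, against 3.11 ± 1.1 CPM at T6 (SD, n = 3 each). The log2 fold changes of Mcm2 were 1.10 ± 0.22 and 0.78 ± 0.21, and the T13 libraries all lay above the T6 libraries. E2f1 gained 2.10 ± 0.12 in Cop1-floxed and 1.91 ± 0.12 in wild-type cells over the same interval, and E2f2 gained 2.71 ± 0.43 and 1.30 ± 0.43. In the mitotic group 4 were higher and 12 lower in Cop1-floxed cells, and 2 and 13 in wild-type cells, with medians of -1.07 and -1.13, while Cdt1, Pcna, Mcm6, Rrm2 and Tyms also fell in both genotypes. Under library totals the mitotic split was 8 higher and 9 lower in Cop1-floxed cells and 2 and 12 in wild-type cells, and the replication split was 7 and 3 in Cop1-floxed cells and 6 and 5 in wild-type cells.

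Between genotypes few members differed at T0, T2.5, T4 and T13, and most of the differences came at T6 and T9 of LPS. In untreated cells 3 of 50 passed the threshold (9.57% of all genes): Ccnd2 was lower in Cop1-floxed cells by -0.86 ± 0.17 (log2; adjusted p = 0.000886, edgeR), Myc was at -0.75 ± 0.23, and E2f8 was at 0.41. The Ccnd2 call held under 17 of 18 alternatives, the Myc call under 9 and the E2f8 call under 6 (adjusted p up to 0.179 for Myc and 0.727 for E2f8). No mitotic or replication member differed at T0. The granulocyte progenitor markers were also lower in untreated Cop1-floxed cells (5 of 6 called), and their part in the result was not tested; without the T0 library of wild-type replicate 2 the number of members called was 5. It was 1 without any single Cop1-floxed mouse and 5 without wild-type replicate 1. Some inflammatory genes outside the 50 were already higher in untreated Cop1-floxed than in untreated wild-type cells. The log2 differences were 2.38 for Cxcl10, 2.54 for Il6 and 0.79 for Tnf (adjusted p = 7.31e-06, 4.77e-05 and 0.00519, edgeR). Il1b and Nos2 were also called higher, with overlapping libraries, and Ifnb1 was not called. LPS values over T0 and interaction terms take the T0 libraries as reference. The part of this gap in them was not tested. At T2.5, T4 and T13 a single member was called each time (3.90%, 4.86% and 3.10% of all genes), Cdt1 at T2.5 and T13 and Mybl2 at T4, and the Cdt1 call at T2.5 held under 7 of 18 alternatives (adjusted p up to 0.334).

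Cdt1, which loads the helicase at origins and is degraded once S phase begins, was the most regular difference. It stood at 132, 124 and 116 CPM at T6 in Cop1-floxed cells, against 68.3, 69.7 and 69.4 CPM in wild-type cells. At T9 it stood at 102, 103 and 78.9 CPM in Cop1-floxed cells, against 47.3, 52.5 and 40.7 CPM in wild-type cells. At T13 it stood at 68.7, 69.4 and 66.5 CPM in Cop1-floxed cells, against 40.8, 44.7 and 38.0 CPM in wild-type cells. The groups did not overlap at any of these times, and the log2 differences of Cop1-floxed over wild type were 0.84 ± 0.12, 1.02 ± 0.13 and 0.73 ± 0.12 (adjusted p = 6.90e-05, 3.90e-06 and 0.000925, edgeR), past the threshold under all 18 alternatives at each. At T0 the difference was 0.22 ± 0.12 and the libraries overlapped, since wild-type replicate 2 was at 69.7 CPM. When the 6 libraries from a mouse were added together, 3 of 50 members differed (7.33% of all genes): Cdt1 was higher in Cop1-floxed mice (0.52 ± 0.06, adjusted p = 0.00856), and Ccnd2 (-0.44 ± 0.06, adjusted p = 0.0110) and Ccne1 (-0.37 ± 0.08, adjusted p = 0.0364) were lower. Of 12 alternatives, 10 kept the Cdt1 call, 9 kept the Ccnd2 call and 6 kept the Ccne1 call (adjusted p up to 0.142). This count was 0 without Cop1-floxed replicate 1 or without wild-type replicate 3, 1 without Cop1-floxed replicate 2, 5 without wild-type replicate 2 and 10 without wild-type replicate 1.

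At T6, 9 of 50 members were called between genotypes (7.80% of all genes), 3 higher and 6 lower in Cop1-floxed cells (4.19% and 3.61% of all genes). At T9 the number was 13 of 50 (10.4%): 4 were higher in Cop1-floxed cells (Ccnd1, Ccnd3, Cdt1 and Cdc25b; 5.92% of all genes) and 9 lower (4.53%), of which 7 were mitotic, with a mitotic median of -0.67 against 0.02 over all genes. Top2a, the topoisomerase that untangles chromosomes, was at 3.38, 4.08 and 4.58 CPM at T9 in Cop1-floxed cells, against 5.53, 8.58 and 7.77 CPM in wild-type cells (-0.86 ± 0.19, adjusted p = 0.00375, edgeR). Cenpf was at 0.492, 0.194 and 0.176 CPM at T9 in Cop1-floxed cells, against 1.04, 1.18 and 1.28 CPM in wild-type cells (-1.99 ± 0.46, adjusted p = 0.00481). Both gaps at T9 passed under every alternative that tested the gene, 18 for Top2a and 15 for Cenpf. The higher calls at T9 other than Cdt1 were kept under fewer alternatives, 10 of 18 for Ccnd1, 11 of 18 for Ccnd3 and 3 of 18 for Cdc25b. Of the other mitotic members lower at T9, Aurkb was kept under 12 of 17 alternatives and Kif11 under 9 of 17. At T6 the lower calls of Top2a and Cenpf were kept under 11 of 18 and 9 of 15. Rrm2 was at 2.08, 0.971 and 2.25 CPM at T9 in Cop1-floxed cells, against 2.66, 5.16 and 4.51 CPM in wild-type cells (-1.20 ± 0.33, adjusted p = 0.018), and that call was lost without the Cop1-floxed T9 library of replicate 2 or without Cop1-floxed replicate 1 or 2 or wild-type replicate 3. Ccnd1 at T6 was higher in Cop1-floxed cells by 0.60 ± 0.16, a call kept under 11 of 18 alternatives (adjusted p up to 0.163), and lost under library totals and without any single Cop1-floxed mouse or wild-type replicate 3. Cdc20 at T6 was lower by -1.71 ± 0.37, with 0.500, 0.766 and 0.421 CPM against 1.13, 2.21 and 2.21 CPM in wild-type cells.

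These counts leaned on single libraries. Without Cop1-floxed T9 replicate 2, which had few genes detected, 5 members were called at T9. Leaving out a whole mouse left 5, 3 and 7 at T9 for Cop1-floxed replicates 1, 2 and 3 and 17, 8 and 3 for wild-type replicates 1, 2 and 3, and at T6 it left 2, 2 and 1 for Cop1-floxed and 10, 4 and 2 for wild type. The stromal and endothelial markers were lower in Cop1-floxed cells at T9 too (8 of 12 tested, sums of 46.9 to 66.1 RPKM against 118 to 243 RPKM in wild-type cells), and their part in these differences was not tested.

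**Figure D5:**
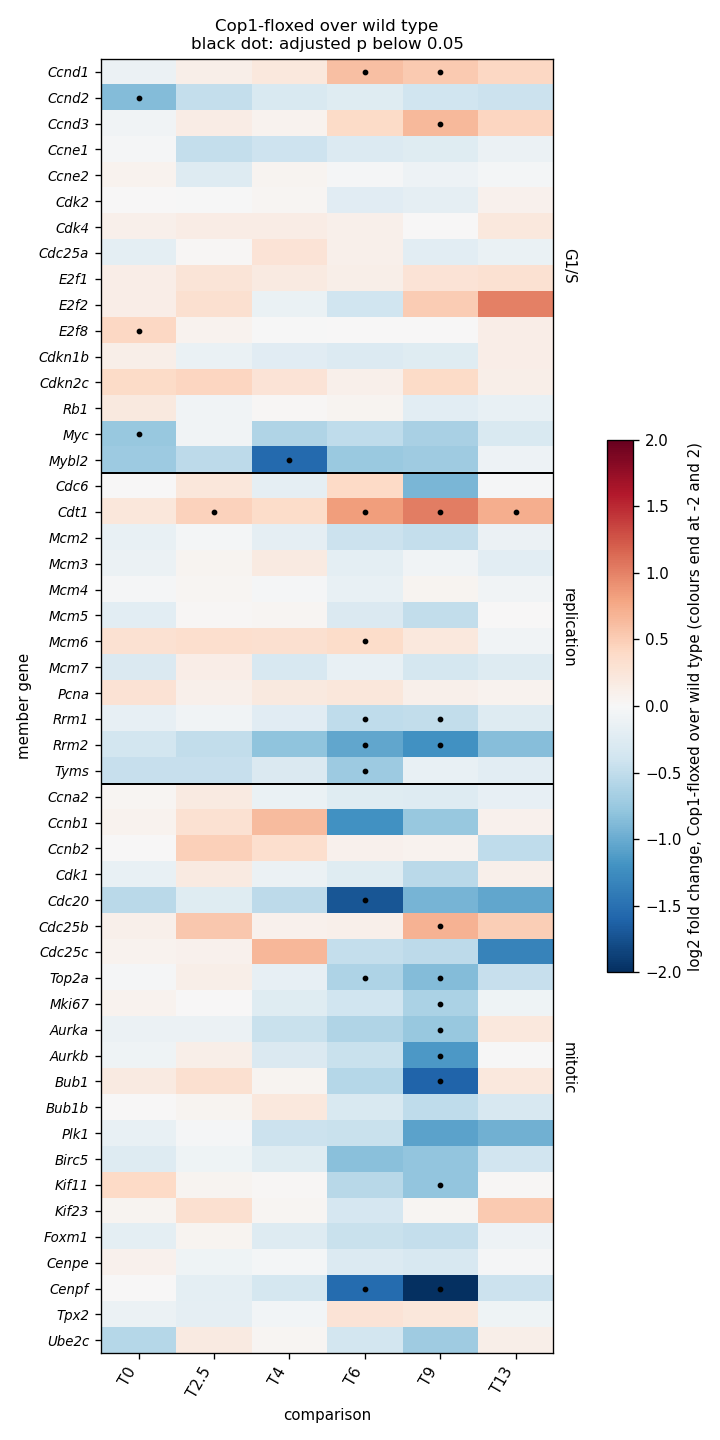
Log2 fold change of Cop1-floxed over wild type for each of the 50 members (rows, by role) at each time (columns, T0 to T13), with a black dot where the adjusted p was below 0.05. Cdt1 was called higher in Cop1-floxed cells at T2.5 (under 7 of 18 alternatives), T6, T9 and T13 (18 of 18 each), and 9 members were lower at T9.

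Whether the response to LPS itself differed between genotypes was asked with an F test over the 5 interaction terms. It called 0 of 50 members, where 0.599% of all genes were called, and 7 members had an unadjusted p below 0.05 (edgeR). DESeq2 and limma-voom each called 1 member, Cdt1, whose adjusted p in the edgeR test was 0.0699 and ran from 0.00237 to 0.743 over the alternatives. In the T9 term alone, where 0.848% of all genes passed, Cdt1 was the only member called. With the mouse as a block 2 members passed, Cdt1 (adjusted p = 0.0126) and Top2a (adjusted p = 0.0165). The 0.599% belongs to the edgeR fit without a block, so it is no baseline for this count or for those of DESeq2 and limma-voom.

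Other cell cycle genes outside the 50 were counted by the same roles, beside 32.6% of all genes higher and 37.7% lower at T6 in Cop1-floxed cells and 32.1% and 38.4% in wild-type cells. Of 43 further replication genes, 33 were lower and 4 higher at T6 in Cop1-floxed cells and 32 and 4 in wild-type cells (40 and 1 in each under library totals). Gmnn (geminin, which blocks CDT1) averaged 1.24 CPM at T6 in Cop1-floxed cells, against 13.8 CPM at T0, and 1.79 CPM in wild-type cells, against 14.2 CPM at T0. Dnmt1, the maintenance DNA methyltransferase, and Rpa1, which coats single-stranded DNA, had log2 fold changes of -2.01 each at T6 in Cop1-floxed cells and of -1.80 and -1.89 in wild-type cells, whereas Rfc3, a clamp loader subunit, was higher by 1.69 and 1.37. Of 49 further mitotic genes tested, 45 were lower and 3 higher at T13 in Cop1-floxed cells and 43 and 3 in wild-type cells (35.0% and 30.8% of all genes in Cop1-floxed and 34.7% and 32.6% in wild-type cells). Cenpa, the centromeric histone, averaged 2.29 CPM at T13 in Cop1-floxed cells, against 20.9 CPM at T0, and 2.24 CPM in wild-type cells, against 38.6 CPM at T0. Cdca8, a chromosomal passenger protein, was lower at T13 by -1.22 in Cop1-floxed and -1.33 in wild-type cells. Pttg1, which encodes securin, was higher at T13 by 2.52 in Cop1-floxed and 2.56 in wild-type cells, and Trip13, a checkpoint ATPase, was higher at T6 by 1.96 and 1.93.

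Among 25 further G1/S genes tested, 12 were higher and 10 lower at T6 in Cop1-floxed cells and 12 and 8 in wild-type cells, where the lower shares are near or under those of all genes (8 and 15 in each under library totals). Cdkn1a (p21, a CDK inhibitor) averaged 1932 CPM at T6 in Cop1-floxed cells, against 130.4 CPM at T0, and 1948 CPM in wild-type cells, against 146 CPM at T0 (log2 fold changes of 3.89 ± 0.15 and 3.74 ± 0.15). Mxd1, a partner of MAX that represses MYC targets, rose by 5.67 in Cop1-floxed and 5.61 in wild-type cells at T6, Max rose by 2.73 and 2.60, and Mnt, another repressor of the same family, was lower by -3.14 and -3.02. Mxd1 also differed between genotypes at T6 and T9, at 824 CPM at T9 in Cop1-floxed cells against 501 CPM in wild-type cells (0.72 ± 0.11, adjusted p = 5.87e-05, edgeR). Of 15 checkpoint and repair genes, 9 were lower and 2 higher at T6 in Cop1-floxed cells and 8 and 2 in wild-type cells (15 and 0 in each under library totals). The checkpoint kinase gene Chek2 was lower by -4.57 and -4.34 in Cop1-floxed and wild-type cells, the repair genes Brca1 by -2.90 and -2.57 and Brca2 by -3.30 and -2.21, and the chromatin ATPase gene Atad2 by -2.84 and -2.62.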

How the data were processed

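Polyadenylated RNA of 36 libraries was analysed. The deposited tables hold, per the file headers, counts of uniquely aligning reads per gene, RPKM values adjusted by size factors, and another table of gene sizes and symbols; the 0.00838% of counts in ribosomal RNA rows stayed in. The submitters' processing notes name GSNAP and the build GRCm38, and the sources used here give neither the strand setting nor the aligner's version. The annotated ranges of 20 of the 50 members overlap another gene in RefSeq (GRCm38.p6). They include Ccnd1, Ccnd2, Ccnd3, Cdk2, Cdk4, E2f1, E2f8, Rb1, Cdc20, Top2a and Kif11. Whole ranges were compared, without exons or strand, so whether reads are shared cannot be told. Some, such as Tpx2, overlap only a microRNA gene. The labels describe replicates as separate individuals.

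Counts were tested with edgeR 4.0.16 in R 4.3.3: filterByExpr over the 12 groups, TMM, 1 mean per group over all 36 libraries and quasi-likelihood tests, with Benjamini-Hochberg adjustment over all genes of a comparison and a threshold of 0.05. SE was taken as |log2 fold change| / √F. In the comparison of mice, counts of 6 libraries were added. The code was tested on simulated data. The members and lists were chosen with earlier results of these data known, so no list was tested as a set. The text names the 4 members of a role with the largest changes at T6, those opposite to their role at T13, the inhibitors, the leading genotype and interaction members, and up to 4 genes of each other list.

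Alternatives were size factors of DESeq2, library totals, no filter, a mean of at least 5 CPM, DESeq2 1.42.0, limma 3.58.1 (trend on log2(RPKM + 1) and log2(RPKM + 0.1), keeping genes whose mean RPKM reached 0.1, and voom with a correlation within mice of 0.148), a replicate block (the mouse for LPS and interaction contrasts, the replicate number between genotypes), the groups of a comparison alone, and leaving out each mouse or a single library that stood apart. The replicate number names the same mouse within a genotype, per the labels: deviations from group means correlated with a median of 0.139 over the 90 pairs of libraries of the same mouse and of -0.0681 over 180 pairs of different mice. Replicates differed beyond sampling noise in all 36 pairs. Coordinates count from 1.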

Additional observations from a re-analysis of the deposited data

Results flagged for a closer look

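Cdt1 passed the threshold in the T9 interaction term alone. At T9 its log2 fold change over T0 was larger in Cop1-floxed than in wild-type cells by 0.79 (n = 3 mice per genotype). The adjusted p of this term was 0.0212 (edgeR), and 0.848% of all genes passed it. Cdt1 did not pass the F test over all interaction terms (adjusted p = 0.0699, edgeR). Its terms at T2.5, T4, T6 and T13 did not pass either (adjusted p = 0.84, 0.88, 0.18 and 0.26, edgeR). The adjustment was over genes and not over these terms. With TMM factors Cdt1 at T9 stood at 0.56 over T0 in Cop1-floxed cells and at -0.24 in wild-type cells. Under library totals the Cop1-floxed value was -0.39, and the T9 interaction term was still positive, at 0.73 (adjusted p = 0.0342, edgeR). The adjusted p of the T9 term ran from 0.00285 to 0.248 over the alternatives. It was 0.068 without the Cop1-floxed T9 library of replicate 2, 0.0669 without the wild-type T0 library of replicate 2, 0.229 and 0.248 without Cop1-floxed replicates 1 and 2, and 0.0829 without wild-type replicate 3.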

How the results depend on the processing

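Size factors of DESeq2 moved 0 of the 32 counts of called members by more than 1.5 times. Library totals, by construction, moved calls of LPS over T0 downward: the members higher at T2.5, T4, T6 and T9 in Cop1-floxed cells numbered 3, 5, 4 and 4, those higher at the LPS times in order in wild-type cells 3, 5, 6, 6 and 4, and those lower at T2.5 37 in Cop1-floxed and 40 in wild-type cells. The summed comparison between genotypes, which holds no LPS contrast, gave 5 under library totals. The same scaling turned these directions: Cdc25a -0.34, Myc -0.087 and Pcna -0.098 at T2.5, Ccnd1 -0.49, Cdt1 -0.46 and Pcna -0.10 at T4, Ccnd3 -0.29, Cdt1 -0.094, E2f8 -0.16 and Pcna -0.11 at T6, Ccnd3 -0.10, Cdt1 -0.39, E2f8 -0.027 and Pcna -0.029 at T9, and E2f1 -0.057 and E2f8 -0.17 at T13, all in Cop1-floxed cells. In wild-type cells it turned Ccne1 -0.064 and Rb1 -0.091 at T2.5, Cdt1 -0.60 and Pcna -0.022 at T4, Cdt1 -0.63 at T6, and E2f1 -0.33 and Pcna -0.34 at T13.

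A mean of at least 5 CPM kept 29 members. It left 7 higher and 15 lower at T4, then 16, 17 and 18 lower at T6, T9 and T13 in Cop1-floxed cells, 13, 16, 18, 18 and 19 lower at T2.5 to T13 in wild-type cells, 11 lower in T13 over T6 in each genotype, and 0, 4 and 6 called between genotypes at T4, T6 and T9. Fitting the groups of a comparison alone gave 22 lower at T2.5 in Cop1-floxed cells and 0, 3, 4 and 4 called between genotypes at T0, T4, T9 and T13. Between genotypes, DESeq2 gave 5, 3 and 4 at T0, T2.5 and T13, 1 in the F test and 9 in the summed comparison. Limma-voom gave 6, 4, 2 and 4 at T0, T2.5, T4 and T6 and 1 in the F test. Limma-trend gave 0 at T2.5 with a pseudocount of 0.1 and 5 at T6 with 1, and no filter gave 2 at T2.5 and 1 in the F test. Without wild-type T0 replicate 2 there were 13 lower at T2.5 in wild-type cells, 5, 3 and 3 called between genotypes at T0, T2.5 and T4, and 1 in the F test. Without Cop1-floxed T9 replicate 2 there were 2 at T2.5 and 5 at T9. The cause of the other moves was not tested.

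The replicate block changed no count of members called under LPS by more than 1.5 times. Across genotypes the numbers name different mice, whose deviations at the same time correlated with a median of -0.0782 for shared numbers and 0.0186 for others, and there a block on that number gave 5, 4 and 2 at T0, T2.5 and T4. In the F test the replicate block was the mouse within its genotype and gave 2.

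Leaving out each mouse gave 7 to 20 lower at T2.5 in Cop1-floxed and 13 to 19 in wild-type cells (21 there without the Cop1-floxed T9 library of replicate 2), 10 to 18 higher in T13 over T6 in Cop1-floxed and 8 to 14 in wild-type cells, and between genotypes 1 to 5 at T0, 0 to 1 at T2.5, 0 to 3 at T4, 1 to 10 at T6, 3 to 17 at T9 and 1 to 2 at T13, and 0 to 10 in the summed comparison. Depth limits the low members: Bub1, Ccnb1 and Cdc25c have libraries at 0 counts, and the lowest count of Cenpf was 1.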
